A study of Homo sapiens with 16 samples.

Results

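The non-HOX homeobox and PAX developmental factors are transcription factors that pattern embryonic tissues. The group described here is a list of 54 gene symbols, matched by Ensembl identifier to the 60448 genes counted in each library, and all 54 were found. They fall into 8 families: 7 PAX, 4 sine oculis (SIX2 to SIX5), 8 LIM-homeodomain, 5 NKX, 6 DLX, 8 TALE (IRX and MEIS), 6 paired-like and 10 other ANTP-class genes. The list is a set of names and its rule uses no level measured here, but it was chosen with earlier results of these data known. RNA was sequenced from HMLER cells, an established line of human mammary epithelial cells immortalized with telomerase and transformed with oncogenic HRAS, which every group carries. The 16 libraries form 8 groups of 2.

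Of the groups labelled wild type, C1 is held to be stably epithelial, C2-Epi is epithelial but plastic, C2-Mes is mesenchymal, and sgControl is C1 with a control guide RNA. The groups sgEED-Epi and sgEED-Mes are C1 cells labelled EED-KO, in a plastic epithelial and a mesenchymal state. The groups sgKMT2D-Epi and sgKMT2D-Mes are C1 cells labelled KMT2D-KO in the corresponding pair of states. All were grown in the same mixture of mammary, DMEM and F12 media with insulin, EGF and hydrocortisone. The labels do not say whether the 2 libraries of a group came from separate cultures, so each p-value reflects only how far these libraries spread, which may be technical. They also do not say whether C1 and C2, or the 2 states of a guide, descend from 1 clone, so clonal differences and differences of state cannot be told apart.

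Homeobox genes encode a DNA-binding homeodomain, and PAX proteins carry a paired domain, in several of them beside a homeodomain. In the embryo each is switched on in a restricted territory, such as PAX6 in the eye and forebrain or NKX2-1 in lung and thyroid. Where they are silent, their CpG-rich promoters are commonly covered by the histone H3 lysine methylation that Polycomb repressive complex PRC2 writes. EED is a core subunit of PRC2. KMT2D is a methyltransferase of the COMPASS family that marks enhancers and activates genes.

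Promoter sequences were matched from RefSeq (GRCh38.p14, a window of 250 bases before to 50 bases after each start) for 38 of the 54 genes. In this window of 300 bases the median number of CG dinucleotides was 29.5 for the 38 genes, 21 over 22199 protein-coding promoters and 14 over all 35116 promoters. The ratio of observed to expected CG was over 0.6 in 34 of the 38 (89.5%), in 62.1% of protein-coding promoters and in 48.8% of all promoters. The letters CACCTG, an E-box bound by EMT repressors of the SNAI and ZEB families, occurred on either strand in 3 of the 38 windows (7.89%), those of DLX2, IRX4 and LHX6, and in 19.9% of protein-coding and 20.6% of all windows. Below are the 150 bases just before the RefSeq start of 5 genes, 5′ to 3′ on the gene's strand, with every CG in capitals. They show the CG content of a gene that was counted almost only in sgEED-Mes (PAX2), one that rose in all 3 mesenchymal groups (SIX2), one that fell in all 3 (IRX2), and of LMX1A and EN2, which had 0 counts or 1 count in the whole series.
PAX2, chr10:100735246-100735395, plus strand: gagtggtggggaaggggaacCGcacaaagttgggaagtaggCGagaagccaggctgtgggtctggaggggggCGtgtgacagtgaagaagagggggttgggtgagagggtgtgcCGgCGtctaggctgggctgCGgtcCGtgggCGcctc
SIX2, chr2:45009453-45009602, minus strand: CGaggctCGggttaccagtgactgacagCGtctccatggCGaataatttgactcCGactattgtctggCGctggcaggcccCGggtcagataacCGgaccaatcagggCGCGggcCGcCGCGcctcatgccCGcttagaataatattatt
IRX2, chr5:2751678-2751827, minus strand: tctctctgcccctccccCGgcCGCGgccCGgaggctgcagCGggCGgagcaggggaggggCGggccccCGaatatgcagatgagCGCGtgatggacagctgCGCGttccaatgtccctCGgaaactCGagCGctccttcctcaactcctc
LMX1A, chr1:165356716-165356865, minus strand: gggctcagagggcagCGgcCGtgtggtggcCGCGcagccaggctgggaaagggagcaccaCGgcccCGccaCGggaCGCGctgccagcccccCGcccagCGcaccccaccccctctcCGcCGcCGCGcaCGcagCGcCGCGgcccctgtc
EN2, chr7:155457979-155458128, plus strand: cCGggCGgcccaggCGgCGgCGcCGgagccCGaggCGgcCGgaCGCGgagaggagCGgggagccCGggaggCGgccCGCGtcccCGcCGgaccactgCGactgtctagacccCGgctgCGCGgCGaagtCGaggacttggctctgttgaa
These stretches held 8 CG dinucleotides at PAX2, 14 at SIX2, 15 at IRX2, 19 at LMX1A and 24 at EN2. The silent LMX1A and EN2 thus had more than the 3 expressed genes. By level, the median window count was 34 CG for 8 matched genes at 1 CPM or more in every library, 27 for 8 genes that reached 1 CPM in sgEED-Mes alone, 24 for 13 genes with mixed levels and 30 for 9 genes under 1 CPM throughout. The RefSeq start lay over 250 bases from the GENCODE 29 gene start for 16 of the 38 genes (up to 10098 bases), so a window need not lie at the start of the counted gene model. Among the 5 printed genes the distance was at most 207 bases. These counts are a description of sequence, and no binding or methylation was measured.

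Total counts ran from 18872124 to 31950649 per library, both extremes in C2-Mes. Levels are CPM (counts scaled by TMM to a common library total) and changes are log2 ratios from edgeR's quasi-likelihood test, with SE and with a call where the Benjamini-Hochberg adjusted p over 18285 genes was under 0.05. EED RNA stood at 26.7 and 29.6 CPM in sgEED-Epi, above the 21.6 and 26.6 CPM of sgControl, and at 5.22 and 5.50 CPM in sgEED-Mes. KMT2D RNA was no lower in sgKMT2D-Epi (124 and 127 CPM) than in sgControl (70.9 and 89.9 CPM), and stood at 76.8 and 86.6 CPM in sgKMT2D-Mes, so RNA level does not check the KMT2D guide, nor the EED guide in the epithelial group. CDH1, the epithelial cadherin, was at least 211 CPM in every epithelial library and at most 1.42 CPM in every mesenchymal one. The 2 C2-Mes libraries differed most between themselves over the genes tested (SD of the log2 difference 0.890, against 0.361 to 0.493 in the other groups), and the deposited name of replicate 1 marks it as prepared again. The 7 neural markers summed to 119 and 138 CPM in sgEED-Mes, 201 to 211 CPM in sgKMT2D-Mes, 91.5 to 155 CPM in C2-Mes and 8.31 to 36.8 CPM in the epithelial groups, with 1 to 4 of the 7 at 0. MAP2 and SYT1 made up most of the neural sums, and STMN2, ELAVL4, SOX10 and GFAP did not pass 0.288 CPM in any library. The 4 leukocyte markers summed to at most 0.263 CPM anywhere, and the 5 skeletal muscle markers to 1.23 to 4.28 CPM. The 3 endothelial markers summed to 18.2 and 30.7 CPM in C2-Mes and to at most 4.56 CPM elsewhere. In C2-Mes that sum was PECAM1 and VWF, and CDH5 had no count. Whether such cells were present, and their part in the changes below, was not tested.

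Cells labelled EED-KO in the mesenchymal state had more of these factors at a measurable level than any other group. Both sgEED-Mes libraries had 38 of the 54 genes at 1 CPM or more, whereas the other 14 libraries had 15 (both C2-Epi) to 24 (both sgEED-Epi and 1 sgControl). Counting any read, 47 and 48 genes were present in sgEED-Mes, 43 and 46 in sgEED-Epi, and 26 to 36 in the other groups. At this level of any read the 2 EED-KO groups stood apart from the rest, and at 1 CPM only sgEED-Mes did. Over all genes, 13769 and 13734 reached 1 CPM in sgEED-Mes and 13001 to 13526 in the others, and the depth of its libraries (29249161 and 25602783 counts) lay inside the range of the series.

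The additional genes were expressed at low levels. Genes at 10 CPM or more numbered 9 in both sgEED-Mes libraries and 5 to 9 elsewhere. The summed level of the 54 genes was 289 and 297 CPM in sgEED-Mes, below the 344 to 396 CPM of C1 and sgControl, and lowest in C2-Mes at 187 and 207 CPM. In bulk RNA, fewer expressing cells and less RNA per cell cannot be told apart.

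**Figure D1:**
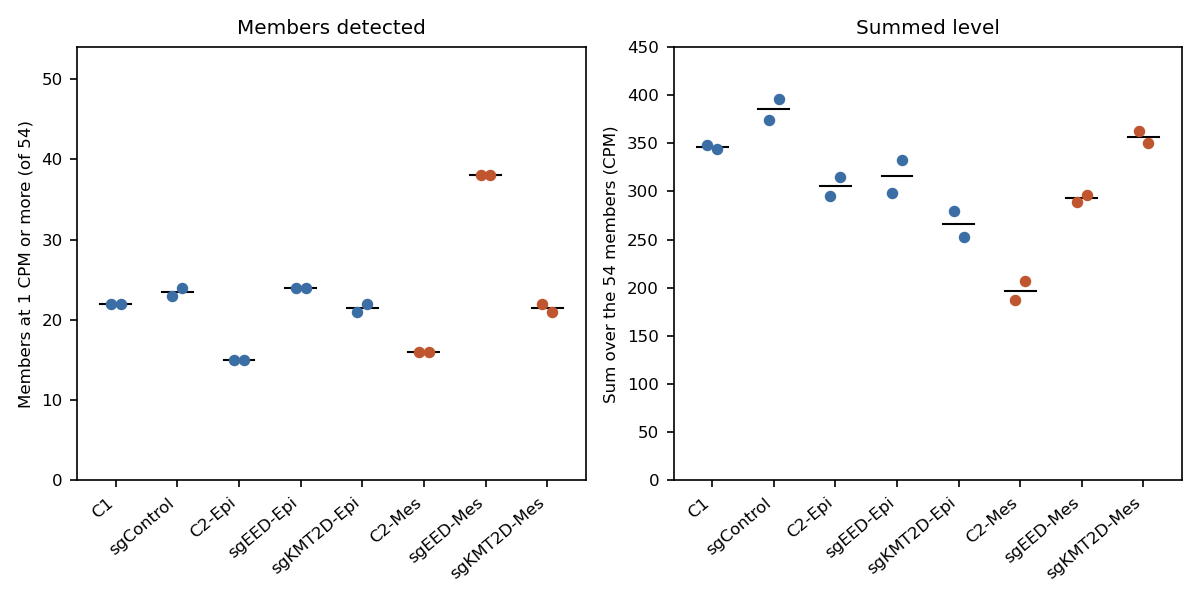
Number of the 54 genes at 1 CPM or more (left) and their summed level in CPM (right), each point a library and each line the mean of the 2 libraries of a group, epithelial groups in blue and mesenchymal groups in orange. Both sgEED-Mes libraries reach 38 genes, above the 15 to 24 of all others, while their sum of 289 and 297 CPM is inside the range of the epithelial groups.

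By level the 54 genes formed 4 sets. At 1 CPM or more in every library were 9: PAX8, SIX4, SIX5, OTX1, IRX1, IRX2, MEIS1, MEIS2 and PITX1. At 1 CPM or more in both sgEED-Mes libraries and under it in all others were 10: PAX2, NKX2-1, NKX2-2, NKX3-2, NKX6-1, DLX6, EMX1, EMX2, BARX1 and ISL1. How many of all genes had this pattern was not counted. Under 1 CPM in every library were 13, and 22 were mixed. Of the 13, PAX5 was tested. The other 12 (PAX3, PAX7, SIX3, LHX2, LHX8, LMX1A, OTX2, BARX2, ALX1, ALX4, EN2 and GBX2) did not pass the filter on low counts and were not tested, leaving 42 tested. LMX1A and GBX2 had no count in any library.

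**Figure D2:**
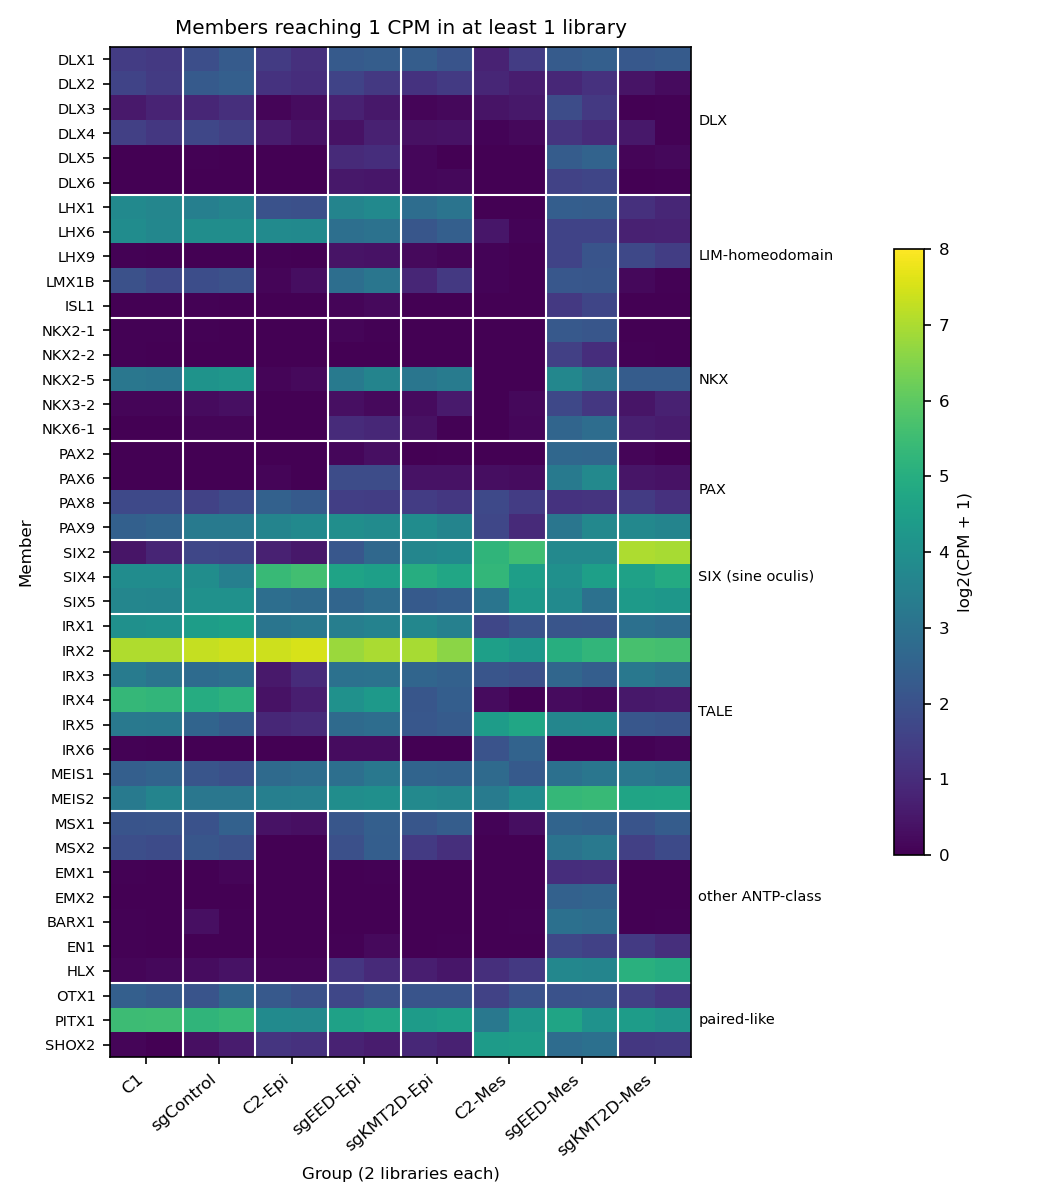
Level of the 41 genes that reached 1 CPM in at least 1 library, as log2(CPM + 1) by colour, in rows by family and with the 2 libraries of each group side by side. Many rows among the PAX, NKX, DLX and other ANTP-class genes are lit in sgEED-Mes alone, while IRX2 is bright throughout and dimmer in the 3 mesenchymal groups.

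The first comparisons asked how these factors differ between the mesenchymal and epithelial state of a lineage. In sgEED-Mes against sgEED-Epi 21 of the 54 genes rose (38.9%) and 7 fell (13.0%), where 19.2% of all genes tested were called higher and 17.3% lower. The 12 untested genes count here as not called. In C2-Mes against C2-Epi 8 rose and 8 fell (14.8% each), against 21% and 18.6% of all genes. PAX2, NKX2-1, NKX2-2, DLX5, DLX6, MSX2, EMX1, EMX2, EN1 and ISL1 had no count in either C2 group. They were among the tested genes but could not be called there. In sgKMT2D-Mes against sgKMT2D-Epi 10 rose (18.5%) and 9 fell (16.7%), against 26.8% and 24.0%. The 10 became 6 without sgKMT2D-Epi replicate 2 or either sgKMT2D-Mes library. The share that rose in the EED-KO lineage was above the share over all genes. The members' shares are over all 54 genes, however, and the others over tested genes only. The filter also ran over all 8 groups, and 10 of the 54 genes reached 1 CPM in sgEED-Mes alone. Such genes could hardly be called lower in sgEED-Mes, or called at all in the other lineages. With only the compared libraries filtered, 40 members were tested in the EED-KO lineage, 21 in C2 and 28 in the KMT2D-KO lineage. These shares describe the list and do not test a difference between lineages.

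These 3 comparisons share no library. SIX2, SHOX2 and HLX rose in all 3, and LHX1, LHX6, IRX1, IRX2 and IRX4 fell in all 3. Of these, IRX4 was under 1 CPM in both C2 states. A further 8 rose in exactly 2 (PAX6, SIX5, LHX9, NKX6-1, IRX3, IRX5, MEIS2 and EN1) and 2 fell in exactly 2 (LMX1B and NKX2-5). IRX6 rose in C2 and fell in the EED-KO lineage, there from at most 0.211 CPM. The share of all genes called alike in 2 or all 3 transitions was not computed, so these counts cannot be set against it. No transition changed 18 genes by the test, among them the 12 not tested and SIX4, PAX5, DLX1, DLX4, MSX1 and PITX1.

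**Figure D3:**
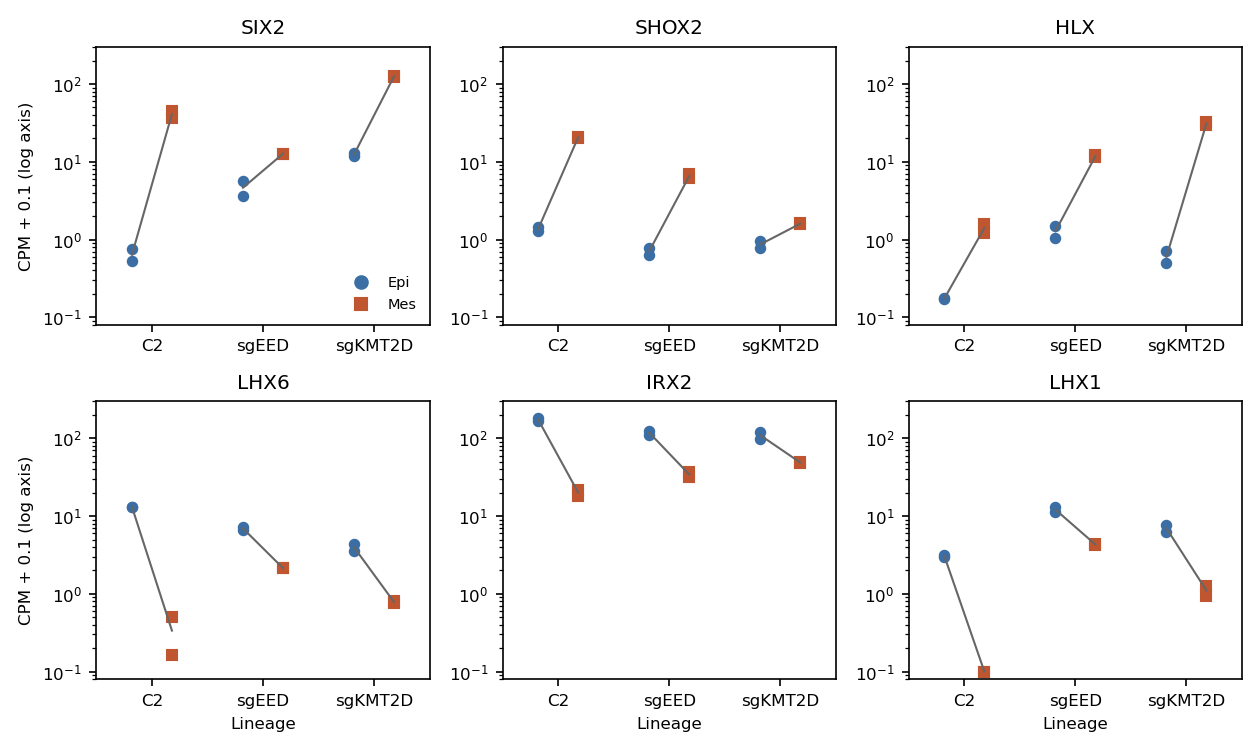
CPM + 0.1 on a log axis for 6 genes that changed in the same direction in all 3 lineages, epithelial libraries as circles, mesenchymal libraries as squares, and a line between the group means. SIX2, SHOX2 and HLX are higher and LHX6, IRX2 and LHX1 lower in the mesenchymal libraries of each lineage, by unequal amounts. LHX1 in C2-Mes is at 0 CPM.

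Among the PAX genes, PAX6 separated both EED-KO groups from all others, and PAX2 separated sgEED-Mes. PAX6, a master gene of eye and forebrain (chromosome 11), had no count in C1 or sgControl. It stood at 2.67 and 2.67 CPM in sgEED-Epi and at 8.67 and 12.6 CPM in sgEED-Mes. In the remaining groups no library passed 0.376 CPM, so the 2 EED-KO groups did not overlap with any other. PAX6 rose in sgEED-Mes against sgEED-Epi (log2 1.99, SE 0.288, adjusted p 0.000179). It was also called higher in C2-Mes against C2-Epi (log2 2.33, SE 0.821, adjusted p 0.0404), but there at 0.234 and 0.192 CPM against 0.0723 and 0 CPM, which is a few counts a library. The gene ELP4, with 307 to 691 counts a library, overlaps PAX6 on the opposite strand, and since the counting strand is not given the 2 cannot be fully told apart.

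PAX2, a factor of the kidney and optic stalk (chromosome 10, 100735603 to 100829941), had 5.37 and 5.28 CPM in sgEED-Mes. It had 0.114 and 0.246 CPM in sgEED-Epi, at most 0.0837 CPM in the KMT2D-KO libraries, and 0 in C1, sgControl, C2-Epi and C2-Mes. The change within the EED-KO lineage was log2 4.83 (SE 0.514, adjusted p 4.72e-05), and sgEED-Mes was at least 39.3-fold above C2-Mes, with a floor of 3 counts per library for groups at 0. Its printed promoter stretch has the fewest CG dinucleotides of the 5 shown.

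The PAX genes of ordinary epithelia behaved differently. PAX9, known from tooth and pharyngeal pouch development (chromosome 14), fell in C2-Mes to 2.28 and 0.927 CPM from 11.1 and 13.0 CPM in C2-Epi (log2 -3.00, SE 0.324, adjusted p 4.71e-06). It did not change by the test in the edited lineages, with 7.91 and 12.3 CPM in sgEED-Mes and 12.3 and 11.2 CPM in sgKMT2D-Mes. The difference between lineages was itself called (log2 2.54, SE 0.422, adjusted p 0.000612 for sgEED against C2, and 2.91, SE 0.423, adjusted p 0.000212 for sgKMT2D against C2). PAX8, a thyroid and kidney factor, fell in C2-Mes (log2 -1.08, SE 0.249, adjusted p 0.00318), a call lost when only those 4 libraries were fitted (adjusted p 0.0875). PAX8 shares its locus with PAX8-AS1 on the opposite strand, which had 34 to 1368 counts a library. PAX5, PAX3 and PAX7 stayed at or under 0.572 CPM everywhere.

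The sine oculis genes act with EYA coactivators in progenitors of kidney, muscle and sense organs. SIX2, which keeps kidney progenitors undifferentiated (chromosome 2, 45005161 to 45009430), was highest in the KMT2D-KO mesenchymal group. It had 128 and 123 CPM in sgKMT2D-Mes, 36.6 and 45.3 CPM in C2-Mes and 12.6 and 12.5 CPM in sgEED-Mes. In the epithelial groups it had 11.7 and 13.0 CPM in sgKMT2D-Epi, 3.50 and 5.58 CPM in sgEED-Epi, 2.27 and 2.18 CPM in sgControl, and 0.382 to 0.777 CPM in C1 and C2-Epi.

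Each mesenchymal group lay above its own epithelial group without overlap, yet sgEED-Mes lay within the range of sgKMT2D-Epi. The log2 change of SIX2 was 6.24 in C2 (SE 0.301, adjusted p 1.36e-09), 3.35 with the KMT2D guide (SE 0.232, adjusted p 5.48e-08) and 1.47 with the EED guide (SE 0.231, adjusted p 0.000194). All 3 pairwise differences between these changes were called. The C2 lineage changed by log2 4.77 more than the EED-KO lineage (SE 0.377, adjusted p 7.31e-07) and by 2.89 more than the KMT2D-KO lineage (SE 0.370, adjusted p 7.46e-05). SIX2's neighbour SIX3, 59.1 kb away, did not pass 0.484 CPM in any library.

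SIX5 rose in sgKMT2D-Mes to 19.5 and 17.8 CPM from 3.76 and 4.26 CPM (log2 2.22, SE 0.351, adjusted p 0.000145). In C2-Mes its 2 libraries stood at 7.60 and 18.2 CPM, and its call there (log2 1.09, adjusted p 0.0198) was lost without C2-Mes replicate 2 or either C2-Epi library, with an adjusted p up to 0.481. SIX4 changed in no transition and was highest in C2-Epi (40.8 and 46.6 CPM).

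The LIM-homeodomain genes fell and rose side by side. LHX6, a factor of interneurons and jaw mesenchyme (chromosome 9), fell in all 3 transitions. In C2 it went from 13.2 and 13.0 CPM to 0.409 and 0.0639 CPM (log2 -6.05, SE 0.377, adjusted p 1.63e-08). In the EED-KO lineage it went from 6.63 and 7.05 CPM to 2.07 and 2.03 CPM (log2 -1.74, SE 0.269, adjusted p 0.000163), and in the KMT2D-KO lineage from 3.44 and 4.30 CPM to 0.669 and 0.700 CPM (log2 -2.49, SE 0.319, adjusted p 2.00e-05). Its promoter window is one of the 3 with the CACCTG letters, but its RefSeq start lies 1193 bases from the GENCODE gene start. Of the other genes that fell in all 3 transitions, IRX4 has the letters in its window, IRX1 and IRX2 do not, and LHX1 was not matched. Whether the letters have a part in these falls was not tested.

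LHX1, a factor of kidney and head organizer (chromosome 17), fell in C2-Mes to 0 CPM in both libraries from 3.03 and 2.88 CPM, at least 21.8-fold. It fell in sgEED-Mes to 4.24 and 4.18 CPM from 11.2 and 12.9 CPM (log2 -1.51, SE 0.193, adjusted p 4.33e-05). In sgKMT2D-Mes it fell to 1.17 and 0.832 CPM from 6.20 and 7.53 CPM (log2 -2.77, SE 0.226, adjusted p 5.53e-07). LHX1 and LHX6 therefore kept part of their expression in the edited mesenchymal groups, and sgEED-Mes exceeded sgKMT2D-Mes for both (log2 2.06, SE 0.231, adjusted p 2.14e-05, and 1.57, SE 0.336, adjusted p 0.00271).

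LMX1B, a factor of limb, kidney and dopaminergic neurons, was higher in the EED-KO than in the KMT2D-KO mesenchymal group. It had 6.47 and 7.90 CPM in sgEED-Epi, 3.56 and 3.43 CPM in sgEED-Mes, 0.815 and 1.51 CPM in sgKMT2D-Epi and 0.126 and 0.0438 CPM in sgKMT2D-Mes. sgEED-Mes exceeded sgKMT2D-Mes by log2 5.27 (SE 0.530, adjusted p 4.97e-06). The fall within the EED-KO lineage (log2 -1.04, adjusted p 0.0167) was lost without sgEED-Epi replicate 2 or either sgEED-Mes library, with an adjusted p up to 0.0918.

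LHX9, known from gonad and limb, and ISL1, from motor neurons and heart, moved upward. LHX9 reached 2.03 and 3.26 CPM in sgEED-Mes and 2.34 and 1.75 CPM in sgKMT2D-Mes, with at most 0.343 CPM in any other library. It rose by log2 2.98 (SE 0.468, adjusted p 0.000247) and 4.13 (SE 0.567, adjusted p 5.34e-05). ISL1 reached 1.49 and 2.16 CPM in sgEED-Mes and at most 0.140 CPM elsewhere (log2 3.99 within the lineage, SE 0.584, adjusted p 0.000662). LHX2, LHX8 and LMX1A did not exceed 0.264 CPM.

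Of the 5 NKX genes, 4 rose in sgEED-Mes against sgEED-Epi, where 19.2% of all genes tested were called higher. All 4 reached 1 CPM in sgEED-Mes alone and could hardly be called lower, so this count is not a test of the family. NKX2-1, the lung and thyroid factor (chromosome 14), had 3.74 and 3.43 CPM in sgEED-Mes and at most 0.0762 CPM in any other library. Its change within the EED-KO lineage was log2 5.91 (SE 0.534, adjusted p 1.45e-05). PAX9 lies 136 kb from NKX2-1 and did not follow it, having 14.4 and 13.4 CPM in sgEED-Epi and 7.91 and 12.3 CPM in sgEED-Mes.

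NKX6-1, a factor of pancreatic beta cells and ventral spinal cord (chromosome 4), had 5.08 and 6.21 CPM in sgEED-Mes. It had 0.990 and 0.842 CPM in sgEED-Epi, 0.627 and 0.525 CPM in sgKMT2D-Mes and at most 0.284 CPM elsewhere. The change was log2 2.62 in the EED-KO lineage (SE 0.406, adjusted p 0.000308) and 1.75 in the KMT2D-KO lineage (SE 0.624, adjusted p 0.0340). NKX2-2, a partner of NKX6-1 in the spinal cord and the pancreas, reached 1.85 and 1.06 CPM in sgEED-Mes, at least 13.2-fold over sgEED-Epi, where it had no count. NKX3-2, of cartilage and spleen, reached 2.32 and 1.45 CPM and rose by log2 3.20 (SE 0.571, adjusted p 0.000665).

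NKX2-5, the cardiac factor (chromosome 5), ran against its family. It was well expressed in the C1-derived epithelial groups, at 8.02 and 7.65 CPM in C1 and 16.4 and 17.3 CPM in sgControl. It was 12.0 and 8.32 CPM in sgEED-Mes, overlapping the 8.68 and 11.1 CPM of sgEED-Epi, and 4.02 and 4.07 CPM in sgKMT2D-Mes, below the 7.80 and 9.12 CPM of sgKMT2D-Epi (log2 -1.06, SE 0.222, adjusted p 0.00146). In C2-Epi it was 0.0723 and 0.154 CPM and in C2-Mes 0, so its call lower in C2-Mes rests on a few counts.

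**Figure D4:**
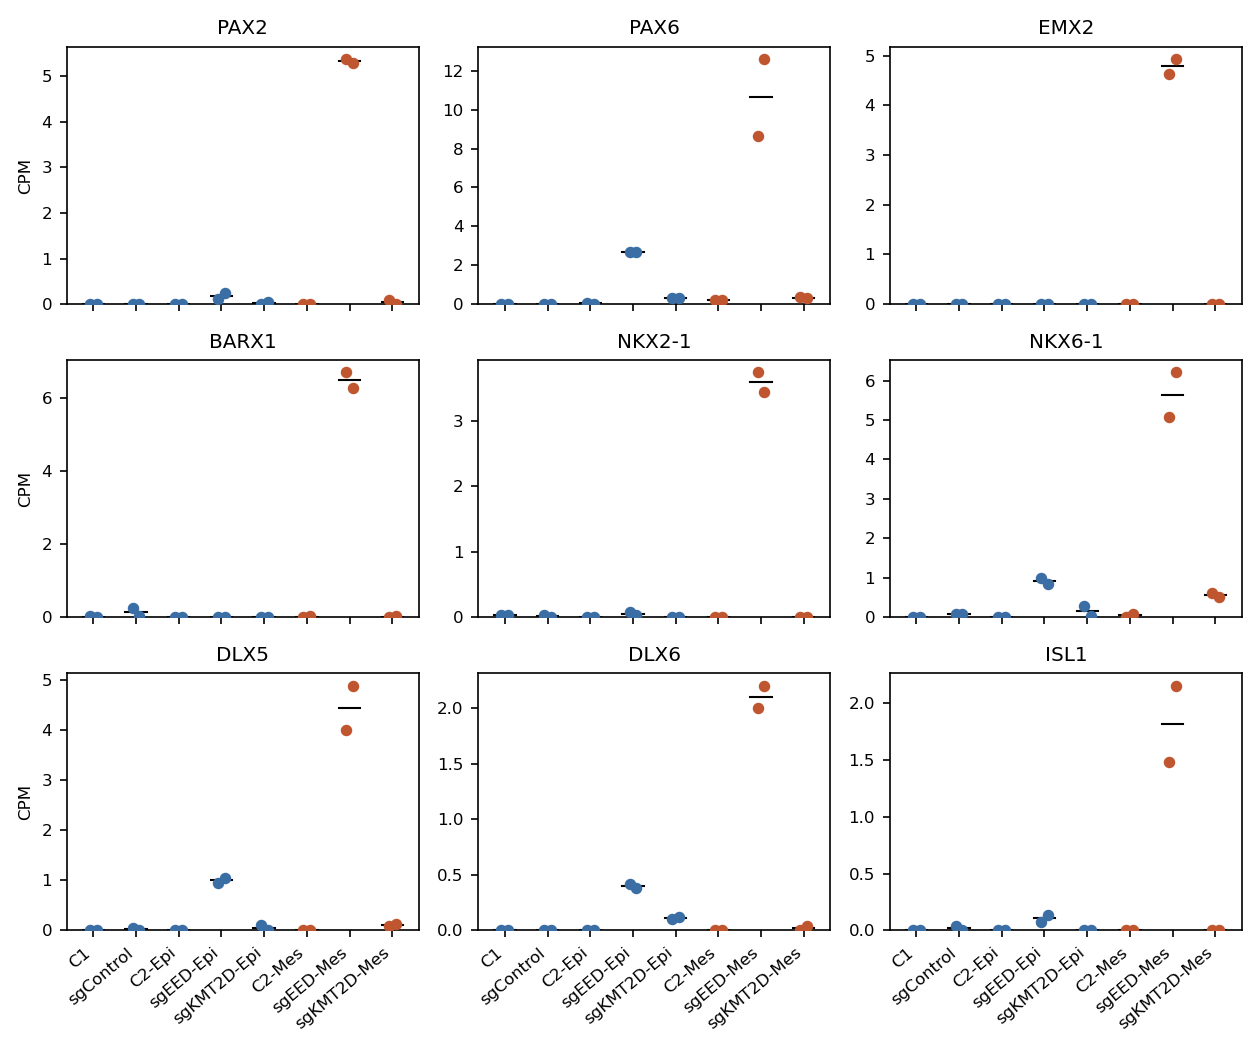
CPM of 9 genes by group, each point a library and each line the group mean, on linear axes from 0 that differ between panels. PAX6, NKX6-1, DLX5 and DLX6 show a step in sgEED-Epi below the level of sgEED-Mes, while PAX2, EMX2, BARX1, NKX2-1 and ISL1 are close to 0 outside sgEED-Mes.

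The DLX genes, which pattern the jaw, forebrain interneurons and placenta, lie in pairs. DLX5 and DLX6 are 9.35 kb apart on chromosome 7 and rose together in the EED-KO lineage. DLX5 went from 0.952 and 1.05 CPM in sgEED-Epi to 3.99 and 4.89 CPM in sgEED-Mes (log2 2.14, SE 0.399, adjusted p 0.00152). DLX6 went from 0.419 and 0.386 CPM to 2.00 and 2.20 CPM (log2 2.37, SE 0.407, adjusted p 0.00121). In all other libraries DLX5 was at most 0.131 CPM and DLX6 at most 0.120 CPM. The antisense gene DLX6-AS1 had 63 counts over both sgEED-Mes libraries.

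Within the 3 transitions, in each of the other pairs 1 gene was called and its neighbour was not. The difference between neighbours was not tested. In other comparisons both were called: DLX3 and DLX4 were higher in sgEED-Mes than in C2-Mes and sgKMT2D-Mes. DLX1 and DLX2 were both higher in sgControl than in C1. Some of these calls were lost with a library left out. DLX3 rose in sgEED-Mes to 2.61 and 1.50 CPM (log2 1.95, SE 0.426, adjusted p 0.00246; adjusted p 0.0506 without sgEED-Mes replicate 1). Its neighbour DLX4, 15.0 kb away on chromosome 17, had 1.31 and 0.969 CPM against 0.305 and 0.667 CPM and was not called (log2 1.21, SE 0.509, adjusted p 0.0789). DLX2 fell in sgKMT2D-Mes to 0.335 and 0.175 CPM from 1.24 and 1.55 CPM (log2 -2.42, SE 0.401, adjusted p 0.000194), while DLX1, 9.76 kb away on chromosome 2, stayed at 3.60 and 3.90 CPM beside 4.11 and 3.27 CPM.

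The other ANTP-class genes included several that were counted almost only in sgEED-Mes. EMX2, of cortex and urogenital tract (chromosome 10), had 4.64 and 4.93 CPM in sgEED-Mes and no count in the other 14 libraries, at least 43.6-fold over sgEED-Epi. BARX1, of stomach mesenchyme and teeth (chromosome 9), had 6.71 and 6.30 CPM, at least 59.2-fold over sgEED-Epi, and at most 0.252 CPM elsewhere. EMX1 reached 1.09 and 1.10 CPM (log2 5.57, SE 0.910, adjusted p 0.000877). EN1, of midbrain and limb, rose in both edited lineages, to 2.25 and 1.94 CPM with the EED guide and 1.55 and 1.09 CPM with the KMT2D guide, from at most 0.140 CPM.

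HLX, a factor of visceral mesenchyme (chromosome 1), rose in every lineage. It had 32.4 and 29.9 CPM in sgKMT2D-Mes against 0.603 and 0.398 CPM in sgKMT2D-Epi (log2 5.93, SE 0.267, adjusted p 9.56e-10). It had 12.0 and 11.4 CPM in sgEED-Mes against 1.41 and 0.948 CPM (log2 3.32, SE 0.235, adjusted p 9.18e-08), and 1.11 and 1.50 CPM in C2-Mes against 0.0723 and 0.0769 CPM (log2 4.08, SE 0.422, adjusted p 3.10e-06). The KMT2D-KO change exceeded the EED-KO change by log2 2.62 (SE 0.356, adjusted p 0.000160).

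MSX1 and MSX2, BMP-responsive factors of limb and craniofacial mesenchyme, separated C1-derived from C2 cells. MSX2 had 2.54 to 3.40 CPM in C1 and sgControl and 0 in all 4 C2 libraries. In sgEED-Mes it had 7.22 and 8.41 CPM against 2.86 and 4.28 CPM in sgEED-Epi (log2 1.13, SE 0.259, adjusted p 0.00475; adjusted p 0.0585 without sgEED-Epi replicate 1). MSX1 changed in no transition. It was at least 3.06 CPM in every library derived from C1 and at most 0.325 CPM in every C2 library.

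The paired-like gene SHOX2, of limb and sinus node (chromosome 3), was the mirror of HLX in its order. It had 20.1 and 20.96 CPM in C2-Mes, 6.09 and 6.78 CPM in sgEED-Mes and 1.46 and 1.53 CPM in sgKMT2D-Mes. The changes were log2 4.02 (SE 0.281, adjusted p 5.44e-08), 3.40 (SE 0.304, adjusted p 9.31e-07) and 0.96 (SE 0.323, adjusted p 0.0233), and the last was lost when any of its own 4 libraries was left out (adjusted p up to 0.178). SHOX2 overlaps RSRC1, which had 328 to 1142 counts a library, on the opposite strand. PITX1, of hindlimb and jaw, changed in no transition and was highest in C1 (43.8 and 44.7 CPM). OTX1 fell in sgKMT2D-Mes (log2 -0.99, adjusted p 0.0120; 0.0753 without sgKMT2D-Mes replicate 2).

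Within the TALE family the Iroquois genes of chromosome 5 fell in every lineage, and those of chromosome 16 did not. IRX2 had the highest level per kilobase of exon of the 54 genes in C1, at 38.9 CPM per kb, with IRX4 next at 13.6, PITX1 at 12.6 and IRX1 at 8.29. IRX4, IRX2 and IRX1 form the Iroquois cluster of chromosome 5, with gaps of 859 kb and 844 kb between them. All 3 genes fell in all 3 transitions, IRX4 in C2 from a level under 1 CPM. IRX2 went from 168 and 181 CPM to 21.9 and 18.2 CPM in C2 (log2 -3.12, SE 0.164, adjusted p 2.77e-09). It went from 111 and 126 CPM to 31.3 and 37.3 CPM with the EED guide (log2 -1.79, SE 0.155, adjusted p 6.84e-07). With the KMT2D guide it went from 122 and 97.6 CPM to 50.2 and 47.6 CPM (log2 -1.16, SE 0.152, adjusted p 2.36e-05). Every mesenchymal library was thus below every epithelial one, and the fall in C2 was larger than in either edited lineage (differences of log2 1.34, SE 0.215, adjusted p 0.000477, and 1.96, SE 0.216, adjusted p 2.12e-05).

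IRX1 fell by 1.55, 1.60 and 0.78 on the log2 scale in C2, EED-KO and KMT2D-KO cells (adjusted p 1.33e-05, 9.45e-06 and 0.00198). IRX4, the ventricular Iroquois factor, had 38.8 and 37.8 CPM in C1 and 29.9 and 34.5 CPM in sgControl. It had 15.5 and 18.5 CPM in sgEED-Epi, 3.44 and 4.22 CPM in sgKMT2D-Epi and 0.325 and 0.576 CPM in C2-Epi, so the epithelial groups already differed widely. In the 3 mesenchymal groups no library passed 0.481 CPM. C2-Mes had 0.175 and 0.0319 CPM, so IRX4 was under 1 CPM in both C2 states. Its call lower in C2-Mes (log2 -2.35, SE 0.569, adjusted p 0.00444) rests on few counts. The fall in the EED-KO lineage was log2 -6.70 (SE 0.338, adjusted p 3.21e-09) and exceeded that of the KMT2D-KO lineage by 3.62 (SE 0.541, adjusted p 0.000359).

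The second Iroquois cluster, IRX3, IRX5 and IRX6 on chromosome 16 (gaps of 644 kb and 389 kb), moved upward in C2. IRX5 went from 0.867 and 0.961 CPM in C2-Epi to 20.2 and 25.5 CPM in C2-Mes (log2 4.64, SE 0.211, adjusted p 8.18e-10). IRX6 went from 0 to 3.16 and 4.79 CPM, at least 35.5-fold, and IRX3 from 0.470 and 0.961 CPM to 3.33 and 2.94 CPM (log2 2.13, SE 0.284, adjusted p 3.63e-05). In the EED-KO lineage IRX5 rose from 5.79 and 6.32 CPM to 11.9 and 12.0 CPM (log2 0.98, SE 0.174, adjusted p 0.000513). There IRX6 went from 0.190 and 0.211 CPM to 0 in both libraries, at least 1.66-fold lower, while IRX3 did not change by the test. In the KMT2D-KO lineage IRX5 did not change by the test (3.47 and 3.20 CPM against 3.47 and 3.86 CPM), and the call of IRX3 (log2 0.67, adjusted p 0.0244) was lost under 10 of 21 alternatives. The change of IRX5 differed between C2 and each edited lineage, by log2 3.67 (SE 0.270, adjusted p 3.59e-07) and 4.78 (SE 0.281, adjusted p 7.77e-08).

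**Figure D5:**
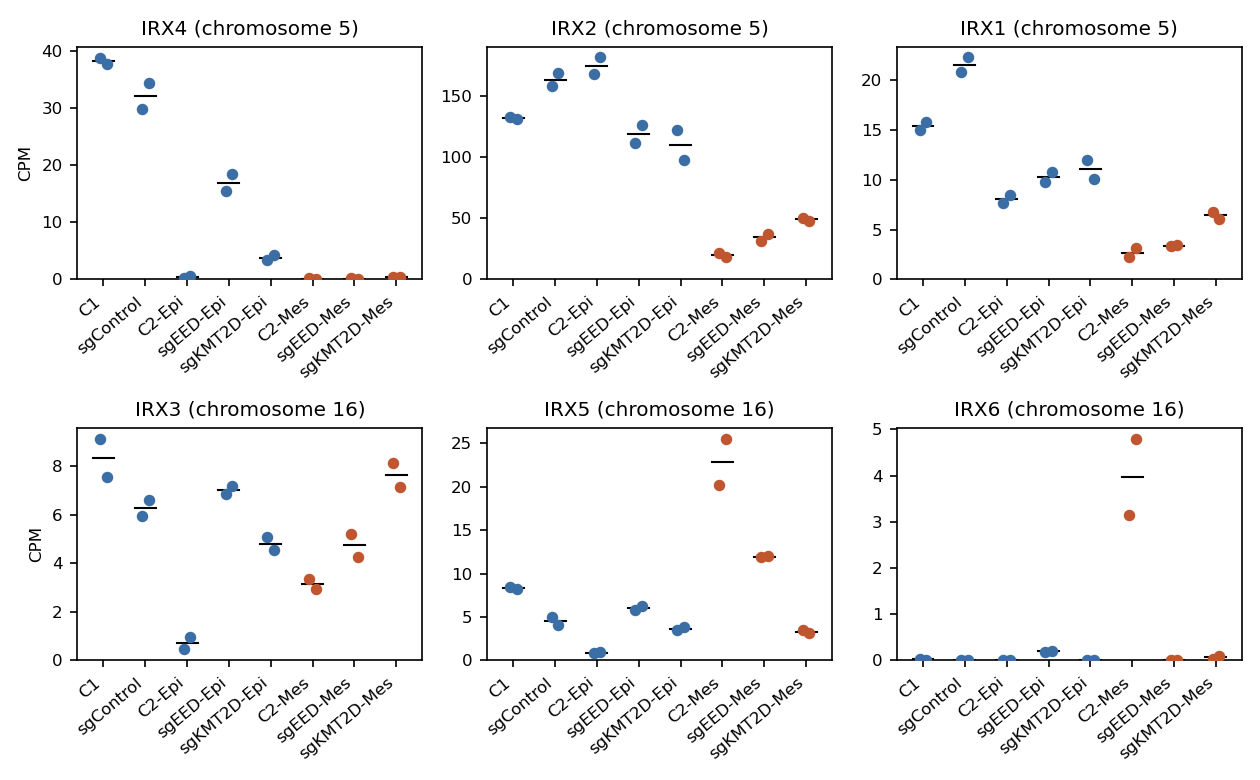
CPM of the 6 IRX genes by group, the chromosome 5 cluster above and the chromosome 16 cluster below, each point a library and each line the group mean, on linear axes from 0 that differ between panels. IRX2 and IRX1 are lower in the orange mesenchymal groups, whereas IRX5 and IRX6 are highest in C2-Mes, at 20.2 and 25.5 CPM and at 3.16 and 4.79 CPM.

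MEIS1 and MEIS2 are cofactors that bind DNA with HOX proteins. MEIS2 had 39.2 and 41.3 CPM in sgEED-Mes, 24.2 and 24.99 CPM in sgKMT2D-Mes and 9.00 and 14.0 CPM in C2-Mes. It rose from 14.1 and 14.7 CPM with the EED guide (log2 1.48, SE 0.187, adjusted p 2.65e-05) and from 12.6 and 11.7 CPM with the KMT2D guide (log2 1.02, SE 0.187, adjusted p 0.000448). MEIS1 stayed between 2.91 and 8.21 CPM in every library, and its call in the KMT2D-KO lineage (log2 0.65, adjusted p 0.0197) was lost under 9 of 21 alternatives.

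The next comparisons asked how the plastic epithelial groups differ from the stable ones. In sgEED-Epi against sgControl 13 of the 54 genes were higher (24.1%) and 9 lower (16.7%), where 24.3% and 24.6% of all genes were called. In sgKMT2D-Epi against sgControl 8 were higher (14.8%) and 14 lower (25.9%), against 25.3% and 30.7%. In C2-Epi against C1 4 were higher (7.41%) and 12 lower (22.2%), against 12.4% and 18.3%. Some of these counts rest on single libraries: the 9 became 5 without sgEED-Epi replicate 1, and the 8 became 3, 4 and 5 without sgKMT2D-Epi replicate 1, sgControl replicate 1 and sgControl replicate 2. The first 2 share the sgControl libraries, so they are not independent. The 2 control groups themselves differed, with 7 members higher (13.0%) and 1 lower (1.85%) in sgControl against C1, beside 13.3% and 13.8% of all genes. The 7 became 2 without C1 replicate 2 or sgControl replicate 2, and 4 without C1 replicate 1.

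Several genes were above sgControl in sgEED-Epi. PAX6 was at least 20.96-fold higher, DLX6 at least 3.16-fold and LHX9 at least 2.59-fold, each against 0 counts in sgControl. DLX5 was higher by log2 5.27 (SE 0.828, adjusted p 0.000409) and NKX6-1 by 3.36 (SE 0.676, adjusted p 0.00162). HLX was higher by log2 2.18 (SE 0.347, adjusted p 0.000183) and LMX1B by 1.34 (SE 0.315, adjusted p 0.00321). In sgKMT2D-Epi, PAX6 was at least 2.51-fold higher, at 0.319 CPM in both libraries, while DLX3 was lower by log2 -3.28 (SE 0.606, adjusted p 0.000445). LMX1B was lower there by log2 -1.29 (SE 0.352, adjusted p 0.00650), a call lost without sgControl replicate 2 or sgKMT2D-Epi replicate 1 (adjusted p up to 0.121).

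SIX2 was higher than in sgControl by log2 1.03 with the EED guide (SE 0.256, adjusted p 0.00456) and by 2.47 with the KMT2D guide (SE 0.250, adjusted p 3.13e-06). SIX2 was also higher in sgControl than in C1 by 1.93 (SE 0.331, adjusted p 0.00104). Against the same sgControl libraries, IRX4 was lower by log2 -0.92 (SE 0.206, adjusted p 0.00233) and -3.07 (SE 0.228, adjusted p 2.58e-07), IRX1 by -1.07 (SE 0.169, adjusted p 0.000180) and -0.96 (SE 0.168, adjusted p 0.000294), and LHX6 by -1.04 (SE 0.243, adjusted p 0.00303) and -1.87 (SE 0.253, adjusted p 3.66e-05), each given for the EED and then the KMT2D guide. NKX2-5 was lower by -0.77 and -0.99, but sgControl exceeded C1 by 1.10 (SE 0.213, adjusted p 0.00255), and against C1 the differences were 0.34 and 0.11, with the opposite sign.

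The summed level of the listed genes was 295 and 315 CPM in C2-Epi, against 349 and 344 CPM in C1. Several single genes were much lower in C2-Epi than in C1. MSX2 was at least 23.7-fold lower, IRX4 lower by log2 -6.40 (SE 0.291, adjusted p 1.03e-08), NKX2-5 by -6.07 (SE 0.354, adjusted p 1.50e-07) and LMX1B by -4.13 (SE 0.478, adjusted p 3.18e-05). IRX3, MSX1 and IRX5 were lower by -3.54, -3.44 and -3.18 (adjusted p 1.02e-06, 1.38e-05 and 1.90e-07). Higher in C2-Epi were SHOX2 (log2 4.77, SE 0.560, adjusted p 3.57e-05), SIX4 (1.66, SE 0.263, adjusted p 0.000428), PAX9 (1.36, SE 0.285, adjusted p 0.00308) and PAX8 (0.81, adjusted p 0.0218, up to 0.103 with a library left out).

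The last pairs compared the 3 mesenchymal groups, which the design text calls distinct. Between sgEED-Mes and C2-Mes 28 of the 54 genes were higher in sgEED-Mes (51.9%) and 5 lower (9.26%), where 21.7% and 20.2% of all genes were called. Between sgEED-Mes and sgKMT2D-Mes 24 were higher (44.4%) and 6 lower (11.1%), against 17.7% and 13.4%, and the 6 became 3 without either sgKMT2D-Mes library. Between sgKMT2D-Mes and C2-Mes 19 were higher (35.2%) and 5 lower (9.26%), against 16.2% and 17.2%. When only those 4 libraries were filtered and fitted, 26 members were tested in place of 42, and the 19 became 11 and the 5 became 3, with 2 of the 19 and 1 of the 5 not tested. The 5 lower in sgEED-Mes against C2-Mes became 3 in the same way, with 40 members tested and all 5 among them. Each pair of these comparisons shares a group. The 10 genes at 1 CPM or more in sgEED-Mes alone could hardly be called lower there, so its shares describe the list and are not a test of it.

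C2-Mes differed from both edited mesenchymal groups by genes at 0. Above C2-Mes, NKX2-5 was at least 75.0-fold higher in the EED-KO and 29.8-fold higher in the KMT2D-KO mesenchymal group, and MSX2 at least 57.6-fold and 15.99-fold. These genes were also absent or near 0 in C2-Epi. C2-Mes was higher than sgEED-Mes for IRX6 (at least 33.0-fold), SIX2 (sgEED-Mes lower by log2 -1.70, SE 0.221, adjusted p 2.82e-05) and SHOX2 (sgEED-Mes lower by log2 -1.67, SE 0.243, adjusted p 7.93e-05).

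Between the edited groups, sgEED-Mes was higher for NKX2-1 (at least 27.9-fold), EMX2 (at least 37.3-fold), ISL1 (at least 14.2-fold) and EMX1 (at least 8.52-fold), all at 0 in sgKMT2D-Mes. It was higher for BARX1 by log2 7.95 (SE 0.722, adjusted p 1.21e-05), PAX2 by 6.80 (SE 0.656, adjusted p 3.58e-05), DLX3 by 6.30 (SE 0.729, adjusted p 1.87e-05) and PAX6 by 4.94 (SE 0.371, adjusted p 1.32e-06). It was lower for SIX2 (log2 -3.32, SE 0.232, adjusted p 1.69e-07), HLX (-1.41, SE 0.198, adjusted p 0.000103) and IRX1, IRX2, IRX3 and IRX4 (-0.93, -0.51, -0.69 and -1.47, adjusted p 0.00159, 0.0199, 0.0335 and 0.0381). The IRX2 call was lost under 3 of 21 alternatives (without sgEED-Mes replicate 1 or either sgKMT2D-Mes library, adjusted p up to 0.130) and that of IRX3 under 7 of 21 (up to 0.201).

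The difference between 2 transitions was also tested as an interaction. For sgEED against C2, 7 members changed more upward and 5 more downward, with 10.2% and 10.9% of all genes called. For sgKMT2D against C2 the counts were 7 and 5, with 12.3% and 11.8%, and for sgEED against sgKMT2D 10 and 6, with 9.24% and 10.9%. The 7 and 5 of sgKMT2D against C2 became 4 and 3 without C2-Epi replicate 1, and the 7 became 4 without C2-Epi replicate 2, sgKMT2D-Epi replicate 2 or either sgKMT2D-Mes library. The 10 became 6 with the replicate number as a block, and 3 without sgKMT2D-Epi replicate 2 or sgKMT2D-Mes replicate 2. PAX2, NKX2-1, NKX2-2, EMX1, EMX2, BARX1 and ISL1 were not among these calls, although each rose in the EED-KO lineage and not by the test in the other 2. For these genes the other lineages were at or near 0 in both states, and the difference between transitions was therefore not established. DLX5, NKX3-2 and MSX2 were not among the calls either. DLX6, DLX3 and PAX6 did differ between the EED-KO and KMT2D-KO transitions (log2 4.52, SE 1.11, adjusted p 0.0179; 3.86, SE 1.27, adjusted p 0.0470; 1.89, SE 0.580, adjusted p 0.0390). These calls were kept under 18, 6 and 13 of 21 alternatives, with adjusted p up to 0.0733 for DLX6, 0.193 for DLX3 and 0.134 for PAX6, and PAX6 was not called with the replicate block.

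Proteins that work with these factors were followed by a list of 28 partner genes, of which 26 were tested: PKNOX, TGIF and further cofactors for the TALE genes, EYA and DACH for the sine oculis genes, LDB, LMO and SSBP for the LIM genes, and TLE corepressors. Of the 28, 15 rose (53.6%) and 7 fell (25.0%) in the EED-KO transition, beside 19.2% and 17.3% of all genes. In the KMT2D-KO transition 13 rose (46.4%) and 2 fell (7.14%), beside 26.8% and 24.0%, and in C2 5 rose (17.9%) and 8 fell (28.6%), beside 21% and 18.6%. The partner shares are over all 28 genes and the others over tested genes only. PKNOX2 and LMO2 reached 1 CPM in sgEED-Mes alone, so these shares describe the list and are not a test of it. EYA1 and EYA2, which bind SIX2 and its relatives, rose in C2-Mes to 11.4 ± 6.99 and 7.41 ± 0.813 CPM (mean ± SD, n = 2; log2 4.13 and 3.93, edgeR adjusted p 4.45e-06 and 2.18e-08). In sgEED-Mes they rose to 28.2 ± 5.31 and 51.6 ± 0.973 CPM (log2 1.78 and 1.90, edgeR adjusted p 0.000860 and 1.95e-06). In sgKMT2D-Mes, where SIX2 was highest, EYA2 rose to 25.0 ± 1.98 CPM (n = 2) from 7.69 ± 0.453 CPM (log2 1.70, SE 0.186, edgeR adjusted p 4.50e-06), while EYA1 had 0.126 and 0.0438 CPM and was not called (edgeR adjusted p 0.529).

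The TALE partner PKNOX2 rose in sgEED-Mes to 27.9 ± 1.11 CPM from 0.274 ± 0.0100 CPM (log2 6.65, edgeR adjusted p 1.95e-09). The LIM cofactor LDB2 fell in sgEED-Mes to 0 from 1.76 ± 0.286 CPM, at least 14.6-fold.

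A list of 84 other homeobox genes outside the HOX clusters, of which 35 were tested, gave 18 higher (21.4%) and 3 lower (3.57%) in the EED-KO transition, where 19.2% and 17.3% of all genes were called. It gave 16 higher (19.0%) and 6 lower (7.14%) in the KMT2D-KO transition, against 26.8% and 24.0%, and 11 higher (13.1%) and 6 lower (7.14%) in C2, against 21% and 18.6%. The untested genes of this list count as not called. PRRX1, a factor of limb mesenchyme, rose in all 3, to 109 ± 7.43 CPM in C2-Mes, 14.6 ± 3.40 CPM in sgEED-Mes and 55.2 ± 1.62 CPM in sgKMT2D-Mes (log2 11.34, 5.23 and 8.66, edgeR adjusted p 7.47e-11, 7.27e-09 and 2.41e-10). The TALE gene MEIS3 also rose in all 3 (log2 3.91, 3.05 and 4.78, edgeR adjusted p 2.61e-08, 2.30e-07 and 7.38e-09).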

How the data were processed

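The authors deposited raw counts per gene, 1 table per library; per the submitters' processing notes, reads were aligned to GRCh38 with STAR 2.7.1a and counted with featureCounts. The annotation release, strand setting and treatment of multiply mapped reads are not given in the sources used here. Symbols and coordinates came from GENCODE 29. Counts were filtered (filterByExpr, 18285 genes), scaled by TMM and fitted in edgeR 4.0.16 (R 4.3.3) on all 16 libraries with a mean for each of 8 groups (robust quasi-likelihood), after a test on simulated data. Folds against groups at 0 are bounds with a floor of 3 counts per library. Alternatives were RLE scaling, no filter, DESeq2 1.42.0, fits of the compared libraries, a replicate block, each library left out, and other controls. Library values were printed for the called genes of at least 1 CPM with the largest changes, and for further members of each family. A further partner gene is not reported here. The members, lists and alternatives were chosen with earlier results of these data known.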

Additional observations from a re-analysis of the deposited data

Results flagged for a closer look

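The called change of IRX6 differed between lineages in direction: it rose in both C2-Mes libraries and went to 0 in sgEED-Mes. The fall was from 0.190 and 0.211 CPM (5 and 6 counts) in sgEED-Epi, at least 1.66-fold. IRX6 reached 1 CPM in C2-Mes alone, so the opposite direction in the EED-KO lineage rests on few counts. The interaction of the sgEED and C2 transitions was called (fitted log2 -15.03, edgeR adjusted p 0.000103). That fitted value depends on the prior count, since C2-Epi and sgEED-Mes had no IRX6 count. Tested as differences between transitions, 7 members changed more upward and 5 more downward with the EED guide than in C2, 7 and 5 with the KMT2D guide than in C2, and 10 and 6 with the EED guide than with the KMT2D guide. Over all genes tested, 10.2% and 10.9%, 12.3% and 11.8%, and 9.24% and 10.9% were called in the same order, and of the 54 members 13.0% and 9.26%, 13.0% and 9.26%, and 18.5% and 11.1%. No group has more than 2 libraries, so no library could be tested as an outlier.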

How the results depend on the processing

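Of 232 single-gene calls, 170 were kept in every alternative run. The 232 are the interaction calls and, for pairs of groups, calls with a mean of at least 1 CPM in the higher group. Calls of genes under 1 CPM in both groups were not followed one by one. Of 4935 alternative values, 303 fell out of the threshold, 249 of them with a library left out, and 2 changed sign: NKX2-5 in sgEED-Epi and sgKMT2D-Epi became 0.34 and 0.11 with C1 in place of sgControl. Counts of members moved by over 1.5 times as follows. With only the compared libraries filtered and fitted (21 to 42 members tested, by comparison, in place of 42), 2 were lower in sgControl against C1, 3 lower in sgEED-Mes against C2-Mes, 11 higher and 3 lower in sgKMT2D-Mes against C2-Mes, and 4 higher and 3 lower in the sgKMT2D and C2 interaction. Over 28 pairs of groups, the differences between replicates correlated from -0.371 to 0.344 (median -0.00085), with 4 over 0.1. These values do not settle whether the replicate numbers pair the libraries, and a batch shared by some libraries was not tested. With the replicate block, the sgEED and sgKMT2D interaction had 6 higher in place of 10, 8 single-gene calls were lost and no other count moved as far. With each library left out, sgKMT2D-Mes against sgKMT2D-Epi had 6 to 10 higher (6 without sgKMT2D-Epi replicate 2 or either sgKMT2D-Mes library). sgEED-Epi against sgControl had 5 to 11 lower (5 without sgEED-Epi replicate 1). sgKMT2D-Epi against sgControl had 3 to 10 higher (4, 5 and 3 without sgControl replicate 1, sgControl replicate 2 and sgKMT2D-Epi replicate 1). sgControl against C1 had 2 to 7 higher (2 without C1 replicate 2 or sgControl replicate 2, 4 without C1 replicate 1) and 1 to 2 lower. sgEED-Mes against sgKMT2D-Mes had 3 to 7 lower (3 without either sgKMT2D-Mes library). The sgKMT2D and C2 interaction had 4 to 7 higher and 3 to 5 lower, and the sgEED and sgKMT2D interaction 3 to 11 higher (3 without sgKMT2D-Epi replicate 2 or sgKMT2D-Mes replicate 2). The cause of these moves was not tested. A group left with 1 library was assumed to vary like the others. At 18872124 to 31950649 counts a library, genes under 1 CPM rest on few counts, and differences between them were often not detectable.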
